A study of Mus musculus with 6 samples.

Results

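Hepatocytes, the main cells of the liver, secrete most proteins of blood plasma. They include carriers such as albumin and its fetal counterpart alpha-fetoprotein, apolipoproteins that hold lipids in solution, protease inhibitors of the serpin family, clotting factors and the inter-alpha-trypsin inhibitors. Their genes are read under liver transcription factors such as HNF1, HNF4 and C/EBP, and their transcripts are among the most abundant of that organ. Before birth the liver is also the site where blood cells, early B cells among them, form next to hepatocytes.

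A set of 38 such genes was followed here among the 30774 gene names of a mouse expression array. A probe was taken when its target name on the array, some of which are in capitals (AFP, AMBP, KNG1), equalled a listed symbol in any case, which gave 61 probes, detected or not. The members fall into 8 carriers and fetal proteins, 10 apolipoproteins, 8 serpins, 6 clotting genes with plasminogen, 4 heavy chains of the inter-alpha-trypsin inhibitors and 2 genes of complement and adhesion. The samples were RNA of sorted preB cells from embryos at E17.5 on the C57BL/6 background. In the Smchd1 null group, of 3 arrays, the embryos were homozygous for a genetrap allele of Smchd1, a chromatin protein that takes part in gene silencing, and bore the Eµ-Myc transgene, an oncogenic Myc under an immunoglobulin enhancer active in B lineage cells. In the Smchd1 wildtype group, also of 3 arrays, they carried the same transgene without the trap. The labels give neither the organ nor the sorting gate. They also do not say that the arrays of a group come from different embryos, and the p-values therefore cover only variation among these 6 arrays, which may be technical.

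All values are normalized log2 intensities unless raw intensities are named, and a probe counted as detected on an array when its detection p, which ranks it among the negative control probes, was under 0.05. Between 15309 and 16447 of 45281 probes were detected per array, and the dimmest detected probe of an array lay between 5.08 and 5.19. Smchd1 by its brightest probe was at 4.64, 5.03 and 4.96 in Smchd1 null replicates 1, 2 and 3, against 9.50, 9.65 and 9.67 in the wildtype replicates. Another probe, detected on every array, had 6.13, 5.15 and 5.43 in Smchd1 null and 6.90, 6.64 and 6.43 in wildtype. The log2 fold change, Smchd1 null minus wildtype, was -1.09 by that probe (SE 0.27, limma adjusted p = 0.86). By the brightest probe it was -4.73, and by a further tested probe -2.41. The remaining Smchd1 probes were not detected on any array. Among the pre-B markers 9 of the 11 on the array could be tested, and Pax5 and Rag2 were detected on too few arrays. Smchd1 null replicate 3 stood apart from the other arrays. Its Pearson correlations with them, across tested probes, were 0.946 to 0.956, where the other pairs had 0.984 to 0.994. The summed level of its pre-B markers was 60571, against 19315 and 21519.6 in the other Smchd1 null samples and 21853 to 22749.8 in wildtype.

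Transcripts of plasma proteins were present in all wildtype samples and were mostly at background in Smchd1 null replicates 1 and 2. By the brightest probe of each gene, 2, 6 and 16 of the 38 genes were detected in Smchd1 null replicates 1, 2 and 3, against 22, 30 and 29 in wildtype replicates 1, 2 and 3. The summed corrected intensity of the 38 genes was 452, 413 and 1358 in Smchd1 null and 3253, 5494 and 5023 in wildtype. The groups did not overlap in this sum, and the third Smchd1 null sample lay between the other nulls and the wildtype samples. In such bulk samples fewer cells of a type and less RNA per cell cannot be told apart.

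**Figure D1:**
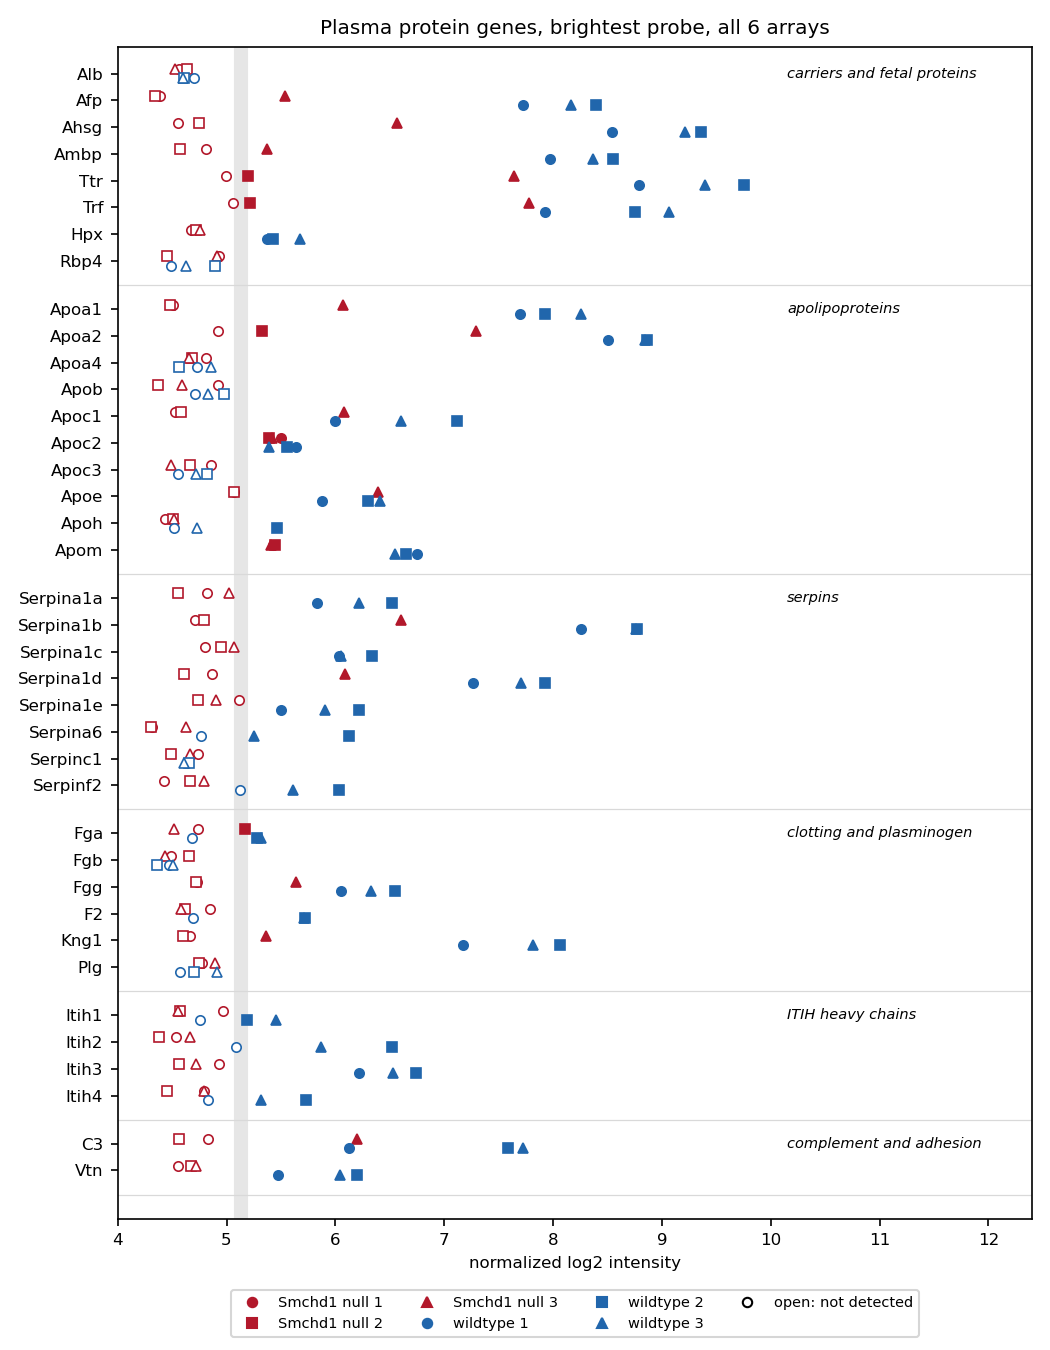
Normalized log2 intensity of the 38 genes by class, with Smchd1 null arrays in red on the upper line of each gene and wildtype arrays in blue on the lower line. Circles, squares and triangles are replicates 1, 2 and 3, open symbols are not detected, and the grey band spans the dimmest detected probe of each array, 5.08 to 5.19. For most detected genes Smchd1 null replicates 1 and 2 sit left of the band, and replicate 3 lies between them and the wildtype arrays or joins them.

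Of the 38 genes, 23 had a probe detected on at least 3 of the 6 arrays and entered the fit over all probes. Most of these passed the filter through the wildtype arrays, so their number and median are a description and not support for a difference. In that fit 5 members fell in Smchd1 null and none rose (limma, Benjamini-Hochberg adjusted p under 0.05), or 5 of the 23 tested, where 0.0526% of all 11402 tested gene names fell. Counted by probe, 0.0441% of all tested probes fell and 0.0567% changed in either direction. At an unadjusted p under 0.05 there were 20 members, all lower, where 1.95% of all tested gene names were lower at that p. The median log2 fold change was -1.76 over the 23 members and -0.01 over all tested genes. Without the filter, every Smchd1 null array lay below every wildtype array for 23 of the 38 members, where 4.48% of all gene names, and 4.96% of the tested ones, did so. With Smchd1 null replicate 3 left out 14 members fell, where 0.158% of all tested gene names did. This omission also removes the spread that the array brought to the Smchd1 null group (SE for Ahsg 0.53 with it and 0.25 without). Leaving out wildtype replicate 1 left 1 member past the threshold, and leaving out any of the other 4 arrays left none (19 or 20 at an unadjusted p under 0.05). Without the detection filter Ambp and Apom passed, 2 of the 38, against 0.00975% of all gene names, while Itih3 (limma adjusted p = 0.0988), Afp and Kng1 (0.128 each) did not, and with median scaling in place of quantile normalization 18 did.

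The carriers and fetal proteins held 2 of the 5 genes that fell. Ambp encodes a precursor that is cut into alpha-1-microglobulin, a heme-binding carrier, and bikunin, a protease inhibitor. Its log2 intensity was 4.81, 4.58 and 5.38 in Smchd1 null, against 7.98, 8.55 and 8.37 in wildtype. Only the third Smchd1 null array was above detection, and the groups lay far apart. Ambp averaged 4.92 ± 0.41 in Smchd1 null and 8.30 ± 0.29 in wildtype (SD, n = 3 each), a log2 fold change of -3.38 (SE 0.25, limma adjusted p = 0.00945). Since the Smchd1 null arrays are near background, the size depends on the offset added before the logarithm, here 16, and with an offset of 50 it was -2.43 for Ambp.

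Afp, alpha-fetoprotein, is the main plasma protein of the fetus. Its raw bead intensity was 128.0, 133.7 and 168.6 in Smchd1 null, against 309.2, 626.1 and 440.1 in wildtype, while the negative controls averaged 140.5, 152.0 and 136.2 on the Smchd1 null arrays and 147.6, 165.9 and 154.0 on the wildtype arrays. On the first and second Smchd1 null arrays Afp was thus no brighter than the negative controls. After normalization it lay at 4.39, 4.34 and 5.54 in Smchd1 null and 7.72, 8.39 and 8.16 in wildtype. It fell by 3.33 on the log2 scale (SE 0.35, limma adjusted p = 0.0472). With an offset of 50 its log2 fold change was -2.31.

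The other 4 detected carriers did not pass the threshold. Ahsg, Ttr and Trf had large differences and a wide spread between the Smchd1 null arrays, and Hpx had neither. Ahsg, fetuin-A, an inhibitor of calcification, had 4.55, 4.75 and 6.57 in Smchd1 null, against 8.54, 9.36 and 9.21 in wildtype, a log2 fold change of -3.75 (SE 0.53, limma adjusted p = 0.148). Ttr, transthyretin, the carrier of thyroid hormone, had 4.99, 5.19 and 7.64 in Smchd1 null and 8.79, 9.75 and 9.40 in wildtype (log2 fold change -3.37, SE 0.68, limma adjusted p = 0.472). In both genes the third Smchd1 null array was far above the other nulls and below every wildtype array. Trf, transferrin, which carries iron, had 5.06, 5.21 and 7.77 in Smchd1 null and 7.93, 8.75 and 9.07 in wildtype, so that the third Smchd1 null array almost reached the lowest wildtype array (-2.57, SE 0.71, limma adjusted p = 0.934). Hpx, hemopexin, which binds free heme, was not detected in Smchd1 null, at 4.68, 4.72 and 4.76, and lay just above detection in wildtype, at 5.37, 5.43 and 5.67. In Smchd1 null it was lower by at least 1.29-fold (limma adjusted p = 0.394). A second Hpx probe, detected on 1 wildtype array, was not tested. It had 4.90, 4.87 and 4.35 in Smchd1 null and 4.60, 5.15 and 4.78 in wildtype, and its groups overlapped. Without Smchd1 null replicate 3, Ahsg (limma adjusted p = 0.00112), Ttr (0.00215) and Trf (0.0101) passed and Hpx (0.175) did not. Without Smchd1 null replicate 1 instead, Ahsg (limma adjusted p = 0.349), Ttr (0.476) and Trf (0.530) did not pass.

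Albumin, the most abundant protein of plasma, gave no signal in either group. The probe of Alb was at 4.56, 4.64 and 4.53 in Smchd1 null and 4.70, 4.61 and 4.60 in wildtype, below the dimmest detected probe everywhere. Rbp4, the carrier of vitamin A, was not detected on any array either.

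Apolipoproteins differed among themselves. Apom, which carries sphingosine-1-phosphate on high-density lipoprotein, fell. It had 5.43, 5.44 and 5.41 in Smchd1 null, against 6.75, 6.65 and 6.55 in wildtype, a log2 fold change of -1.22 (SE 0.13, limma adjusted p = 0.049). With an offset of 50 it was -0.80 and did not pass (limma adjusted p = 0.0804). Unlike Ambp, Afp or Ahsg, Apom was detected on all Smchd1 null arrays, and the third of them was no higher than the others. Its second probe was detected on 1 wildtype array only and was not tested. Apoa1, the main protein of high-density lipoprotein, had 4.51, 4.48 and 6.07 in Smchd1 null and 7.70, 7.93 and 8.25 in wildtype (-2.94, SE 0.43, limma adjusted p = 0.157). Apoa2, its partner on the same particle, had 4.92, 5.33 and 7.29 in Smchd1 null and 8.51, 8.87 and 8.84 in wildtype (-2.89, SE 0.56, limma adjusted p = 0.462). In both genes the third Smchd1 null array stood above the other nulls and below wildtype. Without Smchd1 null replicate 3 both passed, Apoa1 at -3.47 and Apoa2 at -3.62 (limma adjusted p = 0.00112 each). The second Apoa2 probe had a log2 fold change of -2.42 (SE 0.31, limma adjusted p = 0.1).

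For Apoc1 and Apoe, which macrophages also make, the groups overlapped through the third Smchd1 null array. Apoc1 had 4.53, 4.58 and 6.07 in Smchd1 null and 5.99, 7.12 and 6.60 in wildtype (-1.51, SE 0.46, limma adjusted p = 0.934). Apoe had 5.07, 5.07 and 6.39 in Smchd1 null and 5.87, 6.30 and 6.41 in wildtype (-0.69, SE 0.37, limma adjusted p = 0.934). The third Smchd1 null array was within the wildtype range for both. Apoc2, the activator of lipoprotein lipase, was dim on all 6 arrays, with 5.50, 5.39 and 5.42 in Smchd1 null and 5.64, 5.55 and 5.39 in wildtype, and had a log2 fold change of -0.09 (SE 0.14). Apoh was detected on 1 wildtype array. Apoa4, Apob and Apoc3 were not detected on any.

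No serpin passed the threshold. Every Smchd1 null array lay below every wildtype array for 7 of the 8 genes, where 4.48% of all gene names did so. Those 7 were the 5 Serpina1 genes and the untested Serpina6 and Serpinf2. The 5 Serpina1 genes encode mouse forms of alpha-1-antitrypsin, the inhibitor of neutrophil elastase. They are near-identical neighbours on chromosome 12, so their probes may read each other's transcripts and are not independent. Serpina1b had 4.71, 4.79 and 6.60 in Smchd1 null and 8.26, 8.77 and 8.76 in wildtype (-3.23, SE 0.49, limma adjusted p = 0.181), and its other probes had -2.98 and -2.68. Serpina1d had 4.86, 4.60 and 6.08 in Smchd1 null and 7.26, 7.93 and 7.71 in wildtype (-2.45, SE 0.39, limma adjusted p = 0.193). In both the third Smchd1 null array was the only null array above detection. Serpina1a, at 4.82, 4.55 and 5.02 in Smchd1 null and 5.83, 6.52 and 6.22 in wildtype, was at least 2.09-fold lower (limma adjusted p = 0.193). Serpina1c, at 4.80, 4.94 and 5.07 in Smchd1 null and 6.03, 6.34 and 6.05 in wildtype, was at least 2.02-fold lower (limma adjusted p = 0.1), and Serpina1e, at 5.11, 4.74 and 4.90 in Smchd1 null and 5.50, 6.22 and 5.90 in wildtype, was at least 1.68-fold lower (limma adjusted p = 0.62). These 3 genes were not detected on any Smchd1 null array.

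Of the remaining serpins, Serpina6, the carrier of glucocorticoids, and Serpinf2, the inhibitor of plasmin, were each detected on 2 wildtype arrays and were not tested. Serpina6 had 4.32, 4.30 and 4.63 in Smchd1 null and 4.76, 6.12 and 5.26 in wildtype, with the first wildtype array close to the nulls. Serpinc1, antithrombin, was not detected on any array. Without Smchd1 null replicate 3, Serpina1b, Serpina1c and Serpina1d passed, with limma adjusted p-values of 0.00112, 0.0337 and 0.00412. Without Smchd1 null replicate 1 none of them passed.

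**Figure D2:**
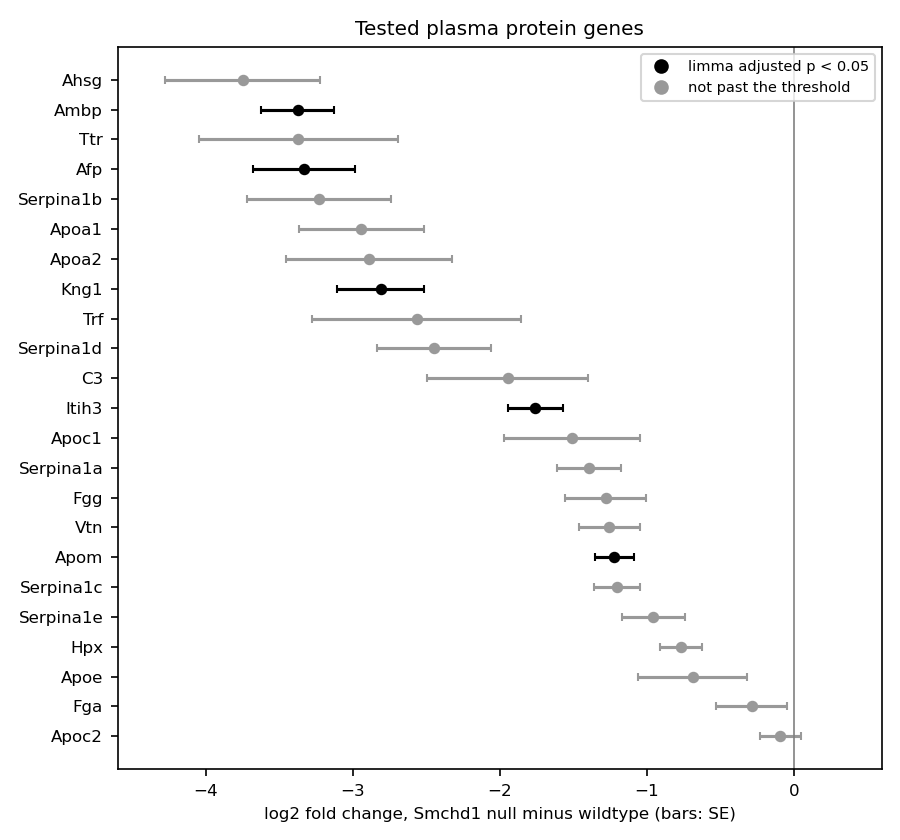
Log2 fold change of the 23 tested genes, Smchd1 null minus wildtype, with the standard error of the limma fit as bars. The 5 genes past the threshold, in black, are Ambp, Afp, Kng1, Itih3 and Apom, and genes with larger fold changes such as Ahsg (-3.75) have longer bars.

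Among the clotting genes Kng1 fell. It encodes kininogen, the source of bradykinin and a cofactor of the contact pathway. It had 4.67, 4.60 and 5.36 in Smchd1 null, against 7.18, 8.07 and 7.81 in wildtype, a log2 fold change of -2.81 (SE 0.29, limma adjusted p = 0.0472), or -1.92 with an offset of 50. The third Smchd1 null array alone was above detection. A second Kng1 probe, not detected in Smchd1 null, had -1.37 (SE 0.17, limma adjusted p = 0.1), and the third probe was not detected on any array.

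The 3 fibrinogen chain genes, whose products join into the clot protein, gave unlike readings. Fgg had 4.73, 4.72 and 5.63 in Smchd1 null and 6.05, 6.55 and 6.32 in wildtype (-1.28, SE 0.28, limma adjusted p = 0.574). Its groups did not overlap, and it passed without Smchd1 null replicate 3 (-1.58, limma adjusted p = 0.0212) but not without replicate 1. Fga was near the limit of detection and its groups overlapped, at 4.74, 5.17 and 4.52 in Smchd1 null and 4.69, 5.28 and 5.31 in wildtype (-0.29, SE 0.24, limma adjusted p = 0.934). A second Fga probe, detected on 2 wildtype arrays and not tested, had 4.56, 4.53 and 4.55 in Smchd1 null and 4.77, 5.62 and 5.29 in wildtype, with no overlap. Fgb and Plg, plasminogen, were not detected on any array. F2, prothrombin, was detected on 2 wildtype arrays, at 5.72 each, and had 4.84, 4.62 and 4.58 in Smchd1 null.

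Heavy chains of the inter-alpha-trypsin inhibitors, such as the Itih3 product, are joined to bikunin, the Ambp product, and stabilize hyaluronan. Itih3 fell. It had 4.93, 4.56 and 4.72 in Smchd1 null, where it was not detected, against 6.22, 6.74 and 6.53 in wildtype, a drop of at least 2.58-fold (limma adjusted p = 0.0472). It entered the fit through the wildtype arrays alone, and with an offset of 50 it did not pass (limma adjusted p = 0.0718). Here, as for Apom, the third Smchd1 null array did not stand above the others. The second Itih3 probe, detected on 2 wildtype arrays, was not tested. That probe had 4.84, 4.63 and 4.65 in Smchd1 null and 4.87, 5.56 and 5.18 in wildtype. Its first wildtype array was close to the nulls. Itih1, Itih2 and Itih4 were each detected on 2 wildtype arrays and on no Smchd1 null array, and were not tested. Of these, Itih2 was at 4.54, 4.38 and 4.66 in Smchd1 null and 5.08, 6.52 and 5.87 in wildtype, with no overlap.

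C3, the central protein of complement, which macrophages also make, had 4.83, 4.56 and 6.20 in Smchd1 null and 6.12, 7.58 and 7.72 in wildtype (-1.95, SE 0.55, limma adjusted p = 0.934). The third Smchd1 null array lay above the first wildtype array. Vtn, vitronectin, an adhesion protein of plasma, was at 4.55, 4.67 and 4.72 in Smchd1 null and 5.47, 6.20 and 6.04 in wildtype. It was not detected in Smchd1 null and lay at least 1.71-fold below wildtype (limma adjusted p = 0.244).

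The promoters of the genes that fell are shown because all 5 transcripts were lower in Smchd1 null and liver factors bind short motifs close to the start of such genes. The windows run from 250 bases before to 50 bases after the annotated start (RefSeq, GRCm38.p6). Of the 38 genes 31 had an entry, among them 4 of the 5 that fell. Capitals mark matches on either strand to the HNF1 motif GTTAAT, the HNF4 site CAAAGTCCA, the C/EBP site TTGCNNAA or the TATA box TATAAA.
Afp, chr5:90490464-90490763, plus strand: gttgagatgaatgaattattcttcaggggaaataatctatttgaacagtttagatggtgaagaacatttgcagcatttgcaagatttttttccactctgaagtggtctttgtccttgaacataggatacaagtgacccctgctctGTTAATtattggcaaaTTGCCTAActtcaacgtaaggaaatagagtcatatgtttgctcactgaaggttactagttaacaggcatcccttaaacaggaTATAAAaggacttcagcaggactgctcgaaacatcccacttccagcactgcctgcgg
Itih3, chr14:30923538-30923837, minus strand: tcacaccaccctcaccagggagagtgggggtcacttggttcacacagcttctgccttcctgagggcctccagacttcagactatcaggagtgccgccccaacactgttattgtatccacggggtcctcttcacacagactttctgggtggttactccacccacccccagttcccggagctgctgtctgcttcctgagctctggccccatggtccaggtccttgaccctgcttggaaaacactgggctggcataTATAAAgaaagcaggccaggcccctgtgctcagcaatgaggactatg
Ambp, chr4:63154123-63154422, minus strand: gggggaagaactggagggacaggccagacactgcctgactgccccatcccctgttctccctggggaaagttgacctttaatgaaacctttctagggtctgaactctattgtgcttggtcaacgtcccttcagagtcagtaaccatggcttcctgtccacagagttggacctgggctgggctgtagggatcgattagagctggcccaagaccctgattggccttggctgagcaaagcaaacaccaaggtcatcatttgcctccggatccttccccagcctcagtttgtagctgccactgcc
Apom, chr17:35131752-35132051, minus strand: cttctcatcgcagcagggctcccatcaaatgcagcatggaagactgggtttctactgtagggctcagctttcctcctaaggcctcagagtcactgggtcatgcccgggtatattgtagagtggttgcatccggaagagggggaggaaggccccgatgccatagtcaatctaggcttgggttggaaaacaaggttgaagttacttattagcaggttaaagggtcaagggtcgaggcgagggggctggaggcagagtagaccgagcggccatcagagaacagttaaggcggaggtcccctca

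In the Afp window an HNF1 motif began 105 bases before the start, a C/EBP site 89 bases before it and a TATA box 7 bases before it. The Itih3 window held a TATA box match just after the annotated start, and the Ambp and Apom windows held none of the 4 motifs. Over the 35 windows of the 31 genes, 40% held the HNF1 motif, against 7.10% of all 32851 windows of the same length. The C/EBP site was in 45.7% of the members' windows and 10.8% of all, and the TATA box in 25.7% and 13.6%. The HNF4 site was in none of the members' windows and in 0.475% of all. All 5 Serpina1 windows held the HNF1 motif and 4 of them held the C/EBP site too, and since these genes share sequence they are not independent cases. Apoe, Apoa2 and Rbp4 had more than 1 window each. The matches describe letters in these windows and do not show binding.

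**Figure D3:**
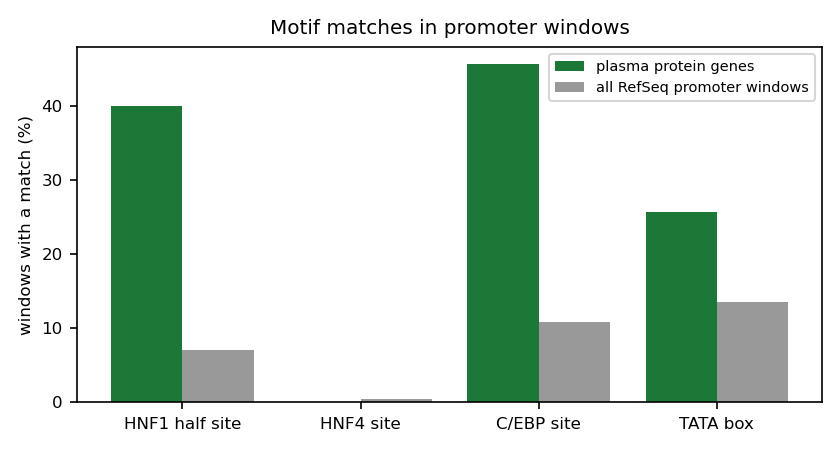
Share of promoter windows with at least 1 match on either strand, for the 35 windows of the plasma protein genes (green) and all 32851 RefSeq windows (grey). The HNF1 motif (40% and 7.10%) and the C/EBP site (45.7% and 10.8%) were found more often in the members' windows, and the HNF4 site was in none of them.

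The signal left in each Smchd1 null array was read on the raw scale as the intensity above the mean of the negative controls, in percent of the wildtype mean, for the 22 genes detected on all wildtype arrays. Its median was 3.50% in Smchd1 null replicate 1, 1.94% in replicate 2 and 23.7% in replicate 3. The control probes of an array had a standard deviation of 9.90 to 11.8 raw units, and members were read from 19 to 69 beads per array, so values of a few percent are within background. In replicate 3 the genes were unequal. Itih3 (6.47%), Ambp (7.81%), Afp (10.7%), Vtn (10.8%), Kng1 (11.6%) and Ahsg (13.4%) had the least signal left. Apoa1 stood at 20.2%, Ttr at 23.8% and Apoa2 at 30.2%. C3 (35.8%), Trf (45.2%), Fgg (48.8%) and Apoc1 (54.0%) had more, and Apoe was at 107%. Apoc2 stood at 70.5%, 71.1% and 86.9% in replicates 1, 2 and 3, and Apom at 23.5%, 27.2% and 30.7%. These percentages are not normalized between arrays and rest on single arrays.

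**Figure D4:**
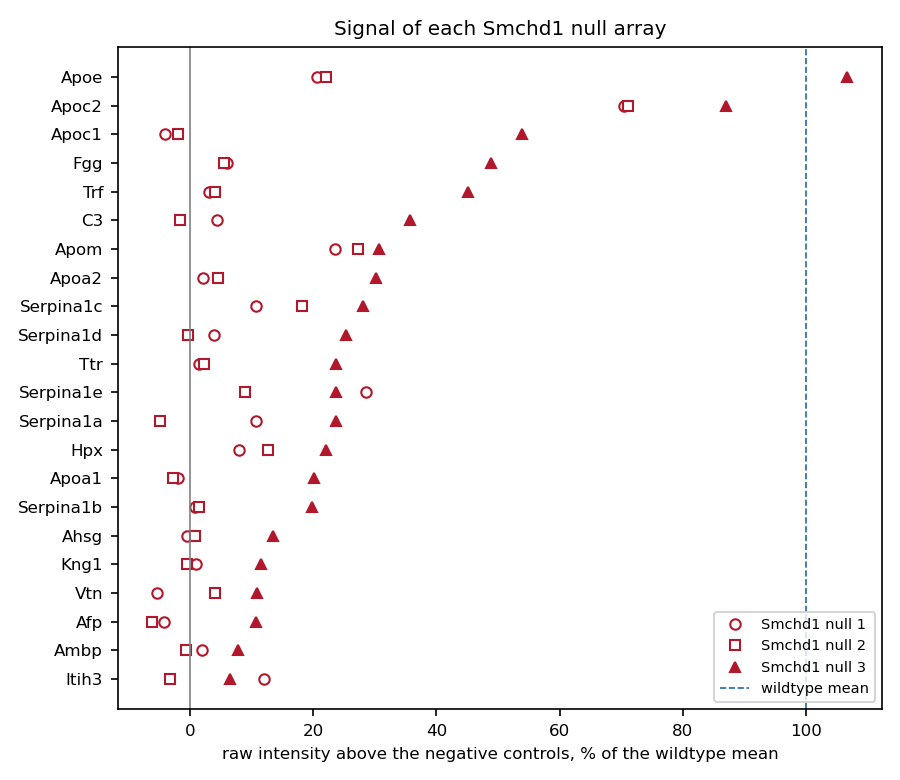
Raw intensity above the negative controls in each Smchd1 null array as a percent of the wildtype mean, for the 22 genes detected on all wildtype arrays. Open circles and squares are Smchd1 null replicates 1 and 2, filled triangles are replicate 3, and the dashed line is the wildtype mean. Replicates 1 and 2 sit near 0% for most genes, while replicate 3 runs from 6.47% (Itih3) to 107% (Apoe).

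The wildtype samples also ranked alike across the genes. In 24 of the 38 members replicate 2 was highest, then 3, then 1, where 18% of all gene names had this order. Of the 23 tested members, 18 were highest in replicate 3 among the Smchd1 null samples, against 37.6% of all tested genes.

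Other secreted plasma proteins of the liver were mostly below detection. Of 54 further genes on the array 29 were not detected on any array and 9 were tested, of which 6 had lower and 3 higher means in Smchd1 null. None passed (limma), and 2 had an unadjusted p under 0.05. One was Igf2, a fetal growth factor, with 5.01, 5.07 and 7.81 in Smchd1 null and 8.60, 9.36 and 8.93 in wildtype (-3.0, SE 0.71, limma adjusted p = 0.794). It ordered the Smchd1 null arrays as Ahsg and Ttr did. Igf2 was the 1 gene of the list that passed without Smchd1 null replicate 3 (limma adjusted p = 0.00112), and none passed without replicate 1. The other was Cfi, a protease that cuts complement C3b, which was not detected in Smchd1 null and lay at least 1.31-fold below wildtype (limma adjusted p = 0.934). Hp, haptoglobin, had 4.72, 5.37 and 6.46 in Smchd1 null and 6.02, 6.20 and 6.51 in wildtype (-0.73, SE 0.41). F10, a clotting protease, had -0.27 (SE 0.21). Of the 54 genes 4, 7 and 7 were detected in Smchd1 null replicates 1, 2 and 3, against 13, 15 and 13 in wildtype. The summed level of this list, Igf2 included, was 686, 671 and 941 in Smchd1 null and 1140, 1528 and 1308 in wildtype.

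Hepatocyte genes whose products stay in the cell had a median difference near 0 where they could be tested. Of 43 such genes 25 were not detected on any array and 7 were tested, 4 with lower and 3 with higher means in Smchd1 null and a median log2 fold change of -0.04. None passed (limma), and none had an unadjusted p under 0.05. The summed level of the 43 genes was 1530, 1710 and 795 in Smchd1 null and 1312, 1197 and 1284 in wildtype. Unlike that of the plasma protein genes, it was lowest in Smchd1 null replicate 3. The difference between this list and the secreted proteins was not tested. Among 7 hepatocyte markers on the array, the enzymes Cps1 and Tat, the receptor Asgr1, the fatty acid carrier Fabp1 and the glucose transporter Slc2a2 were not detected on any array. Hnf4a, a liver transcription factor, was tested, with 5.32, 5.55 and 5.74 in Smchd1 null and 5.77, 5.16 and 5.49 in wildtype (0.06, SE 0.20). The 4 tested genes with the smallest p had overlapping groups. They were Tm4sf4 (0.25, SE 0.21), the keratin gene Krt8 (-0.16, SE 0.18) and the enzyme genes Asl (0.20, SE 0.24) and Fah (-0.20, SE 0.36).

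Levels of markers of other cells also varied between the arrays. Of 9 tested neutrophil markers 8 had lower means in Smchd1 null and none passed (limma, 6 at an unadjusted p under 0.05, all lower, where 1.95% of all tested gene names were). Their summed level was 1613, 2070 and 12515 in Smchd1 null and 4753, 12457 and 13443 in wildtype. Like the plasma protein genes it was lowest in Smchd1 null replicates 1 and 2 and lowest among wildtype in replicate 1, but in Smchd1 null replicate 3 it was at the level of wildtype replicate 2. The 11 macrophage markers, 3 of them tested, summed to 141, 133 and 425 in Smchd1 null and 160, 222 and 160 in wildtype. They were highest in Smchd1 null replicate 3, the array where Apoe, Apoc1 and C3 lay within the wildtype range. The summed pre-B and erythroid markers were highest on that array too. C1qa, Cd5l and Clec4f were not detected on any array. The 9 erythroid markers, 7 of them tested, summed to 15355, 44595 and 57770 in Smchd1 null and 23672.5 to 39669 in wildtype, without a parallel to the plasma protein genes. Of 12 endothelial and stellate markers 6 were not detected on any array and 3 were tested, all with higher means in Smchd1 null and none past the threshold (limma, none at an unadjusted p under 0.05). The part of these other cells in the plasma protein differences was not tested.

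**Figure D5:**
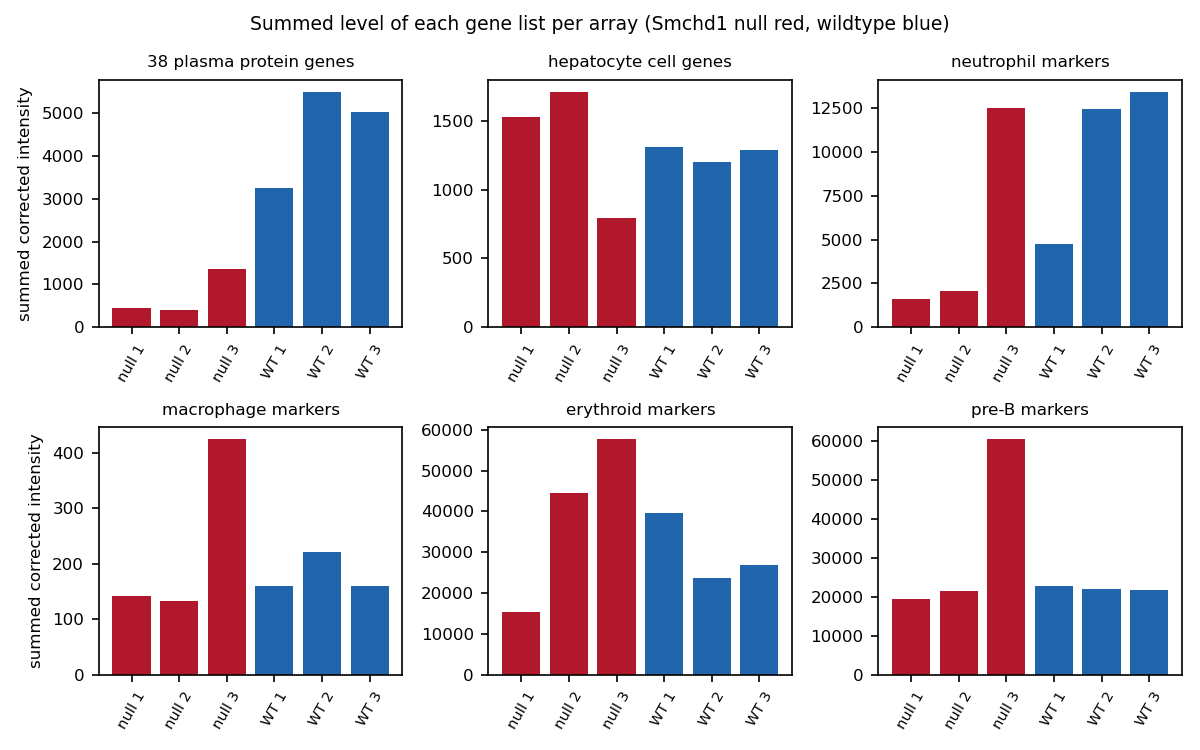
Summed corrected intensity (arbitrary linear units, axes from 0) of 6 gene lists per array, Smchd1 null in red and wildtype in blue. The 38 plasma protein genes are lower on all 3 Smchd1 null arrays (413 to 1358) than on the wildtype arrays (3253 to 5494), while the neutrophil markers of Smchd1 null replicate 3 (12515) lie within the wildtype range and its pre-B markers (60571) exceed all other arrays.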

How the data were processed

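RNA was measured on 6 Illumina MouseWG-6 v2 bead arrays. The deposited intensity of a probe is the average over its beads, not normalized, exported by GenomeStudio 1.8.0 per the file headers. Detection is deposited as a p-value in the control and summary tables, and the main probe table holds 1 minus that p-value as a fraction, per the file headers and values. The authors' deposited log2 values were made with neqc per the deposited description, and the submitters' processing notes name limma 3.12.1 and R 2.15.1. The values computed here lay within 5e-09 of them.

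Intensities of 45281 probes and 974 control probes, 936 of them negative, went through neqc, which corrects background, equalizes quantiles and takes log2 (limma 3.58.1, R 4.3.3, offset 16). Corrected intensity is the normalized value on the linear scale minus this offset. Probes with a detection p under 0.05 on at least 3 of 6 arrays, 15878 in all, were fitted with lmFit and eBayes, Smchd1 null minus wildtype, two-sided, and p-values were adjusted over all tested probes by the Benjamini-Hochberg method (threshold 0.05). Each gene was represented by the brightest of its detected probes (highest mean log2). A gene not detected in 1 group is given as at least N-fold lower: on each dim array the larger of its dimmest detected signal and the probe's value stood in, and the group means were compared. The limma p beside such a bound is that of the fit on the normalized values and does not test the bound. All 6 arrays lay on 1 BeadChip, so there was no slide term to fit. The number of arrays limits the precision.

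Members, lists and tests were chosen with earlier results of these data known. Members past the threshold, and up to 4 more tested ones per class with the smallest p, are given on every array. In both other liver lists those past the threshold and up to 4 with the smallest p are named. Alternatives were other background corrections, offsets, normalizations, filters, moderation, array weights, a replicate block, thresholds, probe rules, the authors' values and the omission of each array.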

Additional observations from a re-analysis of the deposited data

How the results depend on the processing

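All 23 tested members kept their lower mean in Smchd1 null under each of the 15 alternatives that fitted them again, but the number past the threshold did not hold. The 5 members that fell became 3 with an offset of 50, 3 with an intensity trend and robust moderation, 2 without the detection filter, 1 at an adjusted p under 0.01, 18 with median scaling and 18 with array weights. Leaving out 1 array gave 0 to 14 members, 14 without Smchd1 null replicate 3, and array weights gave that array a weight of 0.165. Same-numbered samples of both groups had deviations that correlated at 0.02, 0.04 and -0.01. Such values cannot tell whether these samples shared a preparation, and the labels do not say. With the replicate block 0 members passed (limma, 21 at an unadjusted p under 0.05), and 2 probes did. Over all probes the count of 9 became 14 and 4 at adjusted p under 0.1 and under 0.01, 56 with median scaling, 52 with array weights, 2 where a detection p under 0.01 was asked of each of the 6 arrays, which left no member to test, and 2 to 41 without 1 array. The members' median log2 fold change of -1.76 was -1.04 with an offset of 50 and -1.08 over all 38 genes without the filter. Without 1 array it was -1.63 to -2.02. Of the other secreted proteins 1 passed with median scaling, 1 with array weights and 0 to 1 without 1 array. The cause of these changes was not tested, except that a larger offset shrinks fold changes by construction. Signal near background limits the size of every change against Smchd1 null replicates 1 and 2.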

Other observations

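Neighbouring members of 1 gene cluster read differently. On chromosome 9, Apoa1 was detected on all wildtype arrays, while its neighbours Apoa4 and Apoc3 were not detected on any array. On chromosome 7, Apoe and Apoc1 had log2 fold changes of -0.69 and -1.51, against -0.09 for Apoc2. A second Apoc2 probe was not detected on any array, and a second Apoc1 probe, detected on 1 wildtype array, had overlapping groups. On chromosome 3, Fgg was detected on all wildtype arrays and Fgb on none. On chromosome 5, Afp was detected on all wildtype arrays and Alb on none, although each is read by a single probe here. The same holds for Apoa1, Apoc3, Apoe, Fgg and Fgb, and whether these contrasts lie in the probes was not tested. Apom and Itih3 were the members past the threshold for which Smchd1 null replicate 3 was not the highest of the Smchd1 null samples.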
